A study of Mus musculus with 6 samples.

Results

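The genes described here encode the proteins of the cytosolic ribosome. They were chosen by name from the deposited count table: a name starting with Rpl or Rps and a digit, or Rplp0, Rplp1, Rplp2 or Rpsa, with named pseudogenes, the Rps6k kinases and Rps27rt left out. The rule found 92 of 55536 named genes. Of these, 77 are standard subunits, called core genes below, 31 of the small subunit and 46 of the large. The other 15 are paralogs, retrogene copies or other proteins that share the naming pattern, such as Rpl7l1, Rpl22l1, Rps27l and Rps19bp1. Fau and Rack1, ribosomal proteins that carry other names, fall outside the rule and are given separately.

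The samples were cells of 8 week old C57BL/6 mice, with no genetic change named in the labels. BM was uncultured bone marrow. M-BMDM and GM-BMDM were macrophages grown from marrow for 7 days with M-CSF, the growth factor of the monocyte and macrophage lineage, or with GM-CSF, a growth factor that also supports granulocytes and dendritic cells. M-BMDM_3h and M-BMDM_24h had received the cytokine interleukin-6 (IL6) for 3 h or 24 h, and GM-BMDM_3h had received it for 3 h. Total RNA was sequenced as 1 library per group, with no replicate, and the labels do not say whether animals were pooled or cultures were separate.

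A ribosome holds 1 copy of nearly every one of these proteins, and cells make them in matched amounts. Their mRNAs are among the most abundant in a cell and are short. They begin with a run of pyrimidines, the terminal oligopyrimidine tract, through which the kinase mTOR and the RNA-binding protein Larp1 set their translation together. The subunits are assembled in the nucleolus by a separate set of ribosome biogenesis factors, which are well known targets of the transcription factor Myc. Several members have further roles: Rpl5 and Rpl11 bind Mdm2, the ubiquitin ligase of the tumour suppressor Trp53, when assembly is disturbed, and Rpl13a silences inflammatory mRNAs in stimulated monocytes.

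Start regions are shown here for members that the results below name, 7 with a long pyrimidine run and 4 without. Promoter windows of RefSeq (build GRCm38.p6, from 250 bases before to 50 bases after the annotated start) were matched by symbol for 67 members, 57 of them core. Within 10 bases before to 50 bases after the start, the longest run of C and T letters that begins with C, on the gene's strand, is given in capitals in a window of 30 bases. These genes were chosen after their values were seen.
Rpl4 (chr9:64173406-64173435, + strand): agcgtggCCTTCTCCTCTCCCCgtcatggt
Rpl28 (chr7:4792953-4792982, + strand): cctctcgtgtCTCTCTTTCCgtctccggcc
Rpl13a (chr7:45128722-45128751, - strand): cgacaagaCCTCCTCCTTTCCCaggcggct
Rpl11 (chr4:136053357-136053386, - strand): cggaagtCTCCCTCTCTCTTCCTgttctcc
Rpl38 (chr11:114668569-114668598, + strand): gaagcctcgttCTTTCCCCgttctcttcgg
Rps27 (chr3:90213631-90213660, - strand): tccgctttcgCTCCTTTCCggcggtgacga
Rps12 (chr10:23787181-23787210, - strand): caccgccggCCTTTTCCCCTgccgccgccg
Rplp0 (chr5:115559468-115559497, + strand): gaccgcctggttCTCCTataaaaggcacac
Rpl22 (chr4:152324414-152324443, + strand): atatcagcgctgCTTCTggaatgttccagc
Rpl7l1 (chr17:46782650-46782679, - strand): cccgcccggtgaggCTgcgcaagcgcagta
Rps19bp1 (chr15:80264291-80264320, - strand): agggcggaagtagCTCgccgcgtgtgggcg
The first 7 have a run of at least 8 letters, and the last 4 do not. For Rpl22 the RefSeq start used lies before the gene's start in GENCODE M21, at base 152325742. Its window does not cover that start, so it does not show whether an mRNA from there lacks a run. Rpl5, Rpsa and Rps13, which are not shown, had longest runs of 6 letters. A run of at least 8 letters stood in 43 of the 67 promoters listed for the 57 core genes (64.2%), against 16.5% of all 32851 promoters. The letters CCGGAAG, searched on both strands and able to overlap the run by their reverse complement, stood in 25 of the 67 (37.3%), against 8.86% of all. Members with and without a run had close median log2 ratios: -0.32 (42 genes) and -0.24 (15 genes) for M-BMDM against BM, and 0.20 for both in M-BMDM_3h against M-BMDM.

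The libraries held 18567482 to 24196082 counts. Macrophage markers (10 genes) summed to 6384 scaled CPM (the count of a gene as a share of its library, after TMM scaling of library sizes) in BM and 27020 to 49060 in the 5 cultures, with none at 0. The marrow held other lineages: erythroid markers (10 genes) summed to 82070 scaled CPM in BM and at most 11.01 in a culture, and neutrophil markers (10 genes) to 38100 in BM, 10.7 to 11.8 in the M-CSF cultures and 532 and 574 in the GM-CSF cultures. Dendritic cell markers (8 genes) summed to 130.2 in BM, 15.3 to 28.0 in the M-CSF cultures and 1029 and 1035 in the GM-CSF cultures. The part of these cell mixtures in the results below was not tested. In bulk RNA, fewer cells of a type and less RNA per cell cannot be told apart.

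Core genes were abundant in every library. All 77 passed the filter on low counts (a CPM of 1 in any library), as did 8 of the other 15, which left 85 members analysed among 14719 genes. All members together took 3.83% of the counts in BM, 2.75% in M-BMDM, 3.04% in M-BMDM_3h, 3.27% in M-BMDM_24h, 2.66% in GM-BMDM and 2.60% in GM-BMDM_3h. The exact (Clopper-Pearson) 95% interval around the BM value ran from 3.82 to 3.84 and the others were as narrow, but they cover counting error only. BM stood highest and the GM-CSF cultures lowest by this share, with haemoglobin genes at 8.77% of counts in BM and at most 0.00101% in a culture. The order turns with the scaling: the summed scaled CPM of the core genes was 33520 in BM, lowest in M-BMDM with 26930, and 29220 in GM-BMDM and 28390 in GM-BMDM_3h. The number of core genes among the 500 most counted genes was 59 in BM and 38 to 46 in the cultures. Per kilobase of transcript, with near-identical copies added as described next, the median core gene had a level of 587 scaled CPM in BM, and the middle 50% of core genes lay between 454 and 732.

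For several members the row of a near-identical copy held a large part of the joint counts. Ribosomal protein mRNAs have given rise to many processed pseudogenes, and a read from one cannot be told from a read of its parent where the letters are the same. How the authors' counting shared such reads is not given in the sources used here. A copy was any other row whose GENCODE transcript matched a member's coding sequence at 95% identity or more over at least 80% of its length. Such copies held over 10% of the joint counts for 17 members with counts and over 50% for 6 of them: Rps12 (96.8%), Rpl5 (94.7%), Rpl12 (93.6%), Rpl10 (66.9%), Rpl27a (59.3%) and Rps13 (51.6%). Coding stretches of 30 bases, numbered from the first base of the longest annotated coding sequence, show how alike member and copy are, with differing letters in capitals.
Rps12, bases 243 to 272: ggaggcactttgtgctgagcaccaaatcaa
Rps12-ps3: ggaggcactttgtgctgagcaccaaatcaa
Rps13, bases 401 to 430: tgctcccaccTaattggaaatatgagtcAt
Rps13-ps1: tgctcccaccCaattggaaatatgagtcGt
Rpl37, bases 239 to 268: agggaacaacGccgaaacccaagagggcag
Rpl37rt: agggaacaacAccgaaacccaagagggcag
For Rps12 the longest annotated coding sequence has 444 bases, and its start did not match Rps12-ps3. That start was left out, and the 384 bases compared begin after the last mismatch, so they hold no mismatch by construction. Rps13 and Rps13-ps1 differed by 2 of 453 bases, T411C and A429G (the member's base, its position, then the copy's base). Rpl37 and Rpl37rt, a member of the rule in its own right, differed by 1 of 291, G249A.

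The own row and the sum with copies gave different pictures for these genes. Rpl5, which carries the small ribosomal RNA of the large subunit into the ribosome, had 28.7 scaled CPM in BM, 48.2 in M-BMDM, 46.2 in M-BMDM_3h, 22.7 in M-BMDM_24h, 19.6 in GM-BMDM and 17.1 in GM-BMDM_3h. Its own row was thus highest in M-BMDM with and without 3 h of IL6. With copies added it had 673, 541, 559, 543, 566 and 503 in the same order, with BM highest. Rpl12, a protein of the stalk base of the large subunit, had 31.7, 37.6, 39.6, 15.9, 21.1 and 18.2 in its own row. With copies added it had 470.3, 415, 457, 391.7, 399 and 407. Rps12, a small subunit protein, had 25.6, 20.2, 19.6, 12.5, 12.4 and 11.7 alone and 628, 490, 545, 515, 549 and 457 with copies. The coefficient of variation over the 6 libraries went from 44.6% to 10.2% for Rpl5, from 37.6% to 7.65% for Rpl12 and from 33.3% to 11.2% for Rps12 when copies were added. For these 3 genes the own row therefore followed another order of libraries than the sum did.

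**Figure D1:**
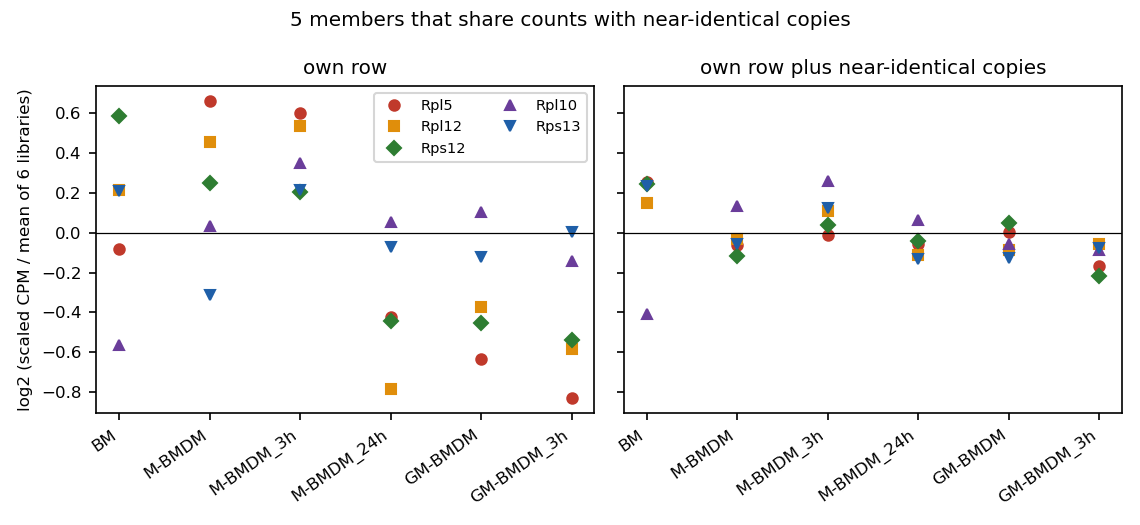
Level of Rpl5, Rpl12, Rps12, Rpl10 and Rps13 in each of the 6 libraries (x axis) as the log2 of scaled CPM over the gene's mean of the 6 libraries (y axis), from the own row (left) and with near-identical copies added (right). Own rows of Rpl5, Rpl12 and Rps12 lie lower in M-BMDM_24h and both GM-CSF libraries than in M-BMDM, and the sums lie close together there.

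Core genes varied little between libraries compared with other genes. The median coefficient of variation over the 6 libraries was 11.5% for core genes and 40.1% for all genes analysed. The steadiest was Rpl15 at 4.64%, and Rps19, Rpl23, Rpl13 and Rpl30 came next. The most variable were Rpl5, Rpl12, Rps12, Rps27 and Rpl4, and with copies added Rps27, Rpl4, Rpl41 and Rpl7, with a highest value of 22.6%. Genes often used as reference genes lay between: Rplp0, the stalk protein, had 1369 scaled CPM in BM, 1154 in M-BMDM, 1356 in M-BMDM_3h, 1331 in M-BMDM_24h, 1468 in GM-BMDM and 1440 in GM-BMDM_3h. Rpl13a ranged from 600.2 in M-BMDM to 887 in BM.

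M-CSF macrophages were compared with the marrow they were grown from. Most core genes were lower in M-BMDM: 69 of 77 had a ratio below 1, and the median log2 ratio was -0.30 (0.812-fold), against -0.07 over all genes analysed. The middle 50% of core genes spanned 0.25 on the log2 scale, and that of all genes 1.98. A member was counted as higher or lower when its ratio was at least 1.5-fold, its exact 95% counting interval did not hold 1 and its level reached 5 scaled CPM in the higher library. By this rule 4 of 85 members were higher (23.1% of all genes) and 5 were lower (23.8% of all genes). With 1 library per group such counts have no replicate check and no p-value. Scaling by total counts instead shifted the median of all genes to -0.23 and gave 2 members higher and 23 lower. The share of all genes called in a pair was worked out with TMM scaling only. Those 2 counts therefore have no share of all genes to be set against. The difference between the members' median and that of all genes, -0.23, does not depend on the scaling.

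The lower members were Rpl4, Rpl28, Rpsa, Rps29 and Rpl37rt. Rpl4, a protein lining the exit tunnel, went from 1115 scaled CPM in marrow to 694 in the culture, or -0.69 on the log2 scale (95% counting interval -0.72 to -0.66). Rpsa, also known as the laminin receptor, had 1169 in BM and 773 in M-BMDM. Rpl28 had 350.4 and 217, and Rps29, a zinc-binding small subunit protein, 255 and 164. The higher members were Rpl5, Rpl10, Rpl7l1 and Rps19bp1. Rpl10, which completes the large subunit late in assembly, had 178 in BM and 270.0 in the M-CSF culture (log2 ratio 0.60), and 0.54 with copies added, which is below the fold required. Rpl5 had a log2 ratio of 0.75 in its own row and -0.32 with copies. Rpl7l1, a relative of Rpl7, had 79.8 in BM and 158 in M-BMDM (0.98). Rps19bp1, a protein that binds Rps19, had 8.47 and 20.5 (1.27). With copies added 2 members were higher and 5 lower.

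GM-CSF macrophages were compared with the same BM library, which both comparisons therefore share. In GM-BMDM 62 of 77 core genes were below BM, with a median log2 ratio of -0.27 against -0.10 over all genes. Of 85 members 2 were higher (22.3% of all genes), Rpl10 at 0.67 and Rps19bp1 at 1.04, and 5 were lower (24.5% of all genes). The lower ones were Rpl4 (-0.69), Rps27 (-0.71), Rpl7 (-0.69), Rpl12 (-0.59) and Rps12 (-1.04). With copies added Rpl12 stood at -0.24 and Rps12 at -0.20, and 1 member was higher and 3 were lower. Scaling by total counts shifted the median of all genes to -0.43 and gave 1 higher and 43 lower. The share of all genes called under that scaling was not worked out.

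**Figure D2:**
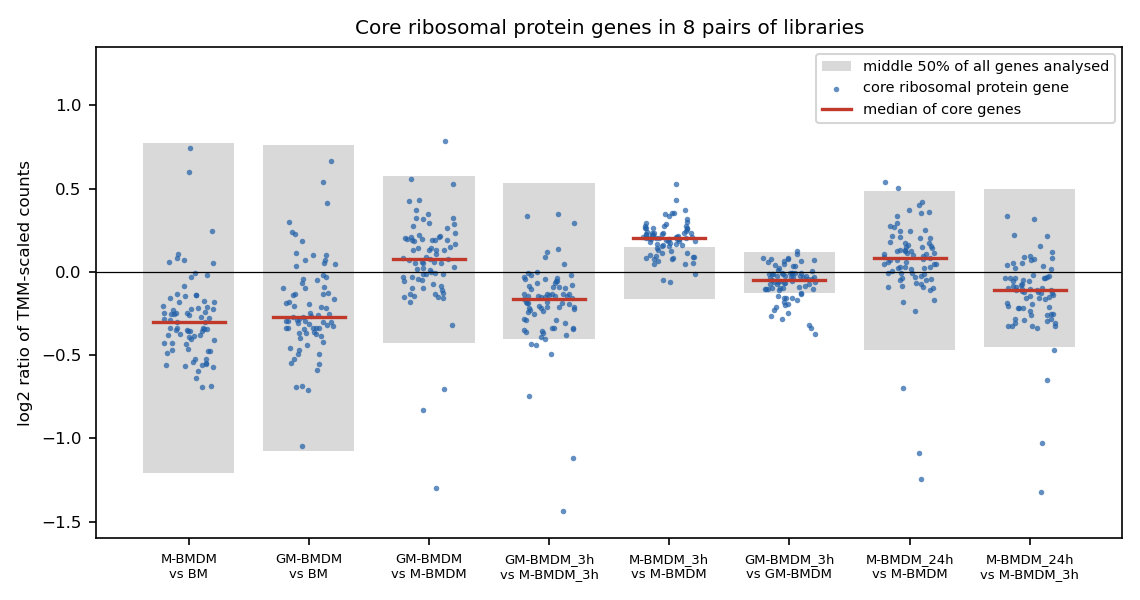
Log2 ratio of TMM-scaled counts (y axis) of the 77 core genes in each of 8 pairs of libraries (x axis), from own rows. Blue points are genes, red lines their medians, and grey boxes the middle 50% of all 14719 genes analysed. Core genes sit in a narrow band in each pair, at a median of -0.30 for M-BMDM against BM and 0.20 for M-BMDM_3h against M-BMDM.

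GM-CSF and M-CSF macrophages could be compared in 2 pairs of libraries, without IL6 and after 3 h of it. Core genes as a group did not keep a direction: their median log2 ratio was 0.08 without IL6, with 50 of 77 above 1, and -0.16 after 3 h, with 7 of 77 above 1. With total-count scaling the median over members without IL6 was -0.09, so its direction turns with the scaling, while the median after 3 h was -0.27. Without IL6 1 of 85 members was higher (13.8% of all genes) and 4 were lower (13.1%). After 3 h none was higher (13.3%) and 3 were lower (12.5%). Of the 85 members 41 had the same direction in both pairs, 10 higher and 31 lower in GM-CSF cells.

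A test over both pairs used edgeR's quasi-likelihood fit of all 6 libraries with Benjamini-Hochberg adjustment over all genes. The fit has 1 residual degree of freedom, which is how far M-CSF and GM-CSF cells differed in their 3 h response. The p-values measure only that kind of spread, which may be technical, and it was mostly pooled over all genes analysed. The pooled value carried a median of 502.3 degrees of freedom, against 1 for a gene's own spread. A low p-value therefore does not show that a gene's ratios in both pairs were alike. By this test 8 members rose in GM-BMDM (28.9% of all genes did) and 19 fell (27.4% of all genes did), and 25 of the 27 had the same direction in both pairs. Rpl10 and Rps28 did not. The test was made on these same pairs, so the choice itself favours members with 1 direction. The agreement is therefore no separate check. Among all 85 members 41 had the same direction in both pairs. With total-count scaling 3 rose and 38 fell (23.4% and 33.4% of all genes), with the DESeq2 Wald test 6 rose and 5 fell (18.7% and 15.7%), and with copies added 9 rose and 16 fell (29.1% and 27.5%).

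The members that rose were led by Rpl41, the shortest ribosomal protein. It had 451 scaled CPM in M-BMDM, 569 in M-BMDM_3h, 778 in GM-BMDM and 697 in GM-BMDM_3h. Both GM-CSF libraries lay above these M-CSF libraries and above M-BMDM_24h (536). Its log2 fold change was 0.54 (SE 0.087, edgeR adjusted p = 4.4e-09). Rps2, a small subunit protein near the mRNA entry, had 621 and 722 in M-BMDM and M-BMDM_3h and 897 and 918 in the GM-CSF libraries (0.44, SE 0.087, edgeR adjusted p = 2.6e-06). The stalk protein Rplp1 had 562 and 633 against 756 and 798 (0.38, SE 0.086, edgeR adjusted p = 3.6e-05). Rplp0 (0.22), Rpl13a (0.20), Rpsa (0.20) and Rps28 (0.21) rose by less. With copies added Rpsa had 1122 in M-BMDM_24h, above GM-BMDM (937) and GM-BMDM_3h (980). Rps12l1, with at most 1.47 scaled CPM in any library, had 1.74 with an SE of 0.71.

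The members that fell were led by the own rows of Rpl5 (-1.36, SE 0.11, edgeR adjusted p = 4.9e-32), Rpl12 (-0.97) and Rps12 (-0.72). With copies added these rows no longer passed the test. Rpl7l1 had 158 and 157 scaled CPM in M-BMDM and M-BMDM_3h and 101 and 106 in the GM-CSF libraries (-0.60, SE 0.084, edgeR adjusted p = 1.8e-11). M-BMDM_24h, which the test does not compare here, had 96.6, below both GM-CSF libraries. No copy of Rpl7l1 had counts. Rpl22, an RNA-binding large subunit protein needed for T cell development, had 136 and 145 against 109 and 107 (-0.38, SE 0.084, edgeR adjusted p = 2.3e-05). Its paralog Rpl22l1, which Rpl22 is known to repress in other cells, fell too (-0.23, edgeR adjusted p = 0.039). The remaining 13 fell by 0.19 to 0.31 on the log2 scale, among them Rpl11 (-0.22), Rpl35a (-0.27), Rps27 (-0.25), Rps24 (-0.25) and Rps27a (-0.23), which is made as a fusion with ubiquitin.

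**Figure D3:**
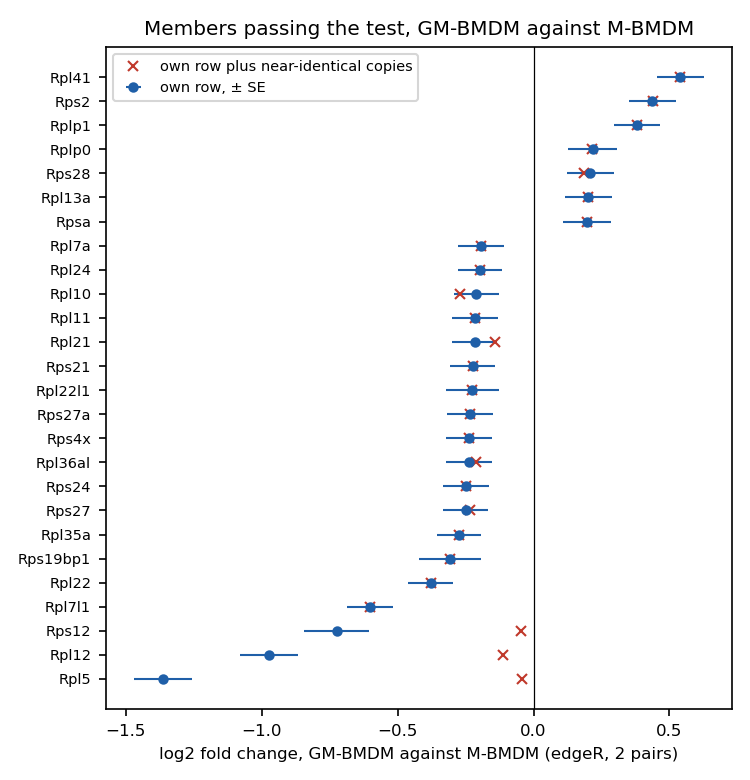
Log2 fold change of GM-BMDM against M-BMDM (x axis) from the edgeR fit for 26 of the 27 members that passed the test (y axis), with Rps12l1 left out for its low counts. Blue points with bars are own rows ± SE and red crosses the same fit with near-identical copies added. Rpl5, Rpl12 and Rps12 move from -1.36, -0.97 and -0.72 to near 0. Rpl41, at 0.54, has no copy, so both its marks are the same value.

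After 3 h of IL6 nearly all core genes were slightly higher in M-CSF macrophages. In M-BMDM_3h 74 of 77 were above M-BMDM, with a median log2 ratio of 0.20 (1.15-fold) against 0.00 over all genes. The 3 below were Rpl5, Rpl23 and Rps12 by their own rows. With copies added Rpl5 had a log2 ratio of 0.05 and Rps12 0.15, while Rpl23 had -0.02. In GM-CSF macrophages 60 of 77 were below their control, with a median of -0.05. No member was counted as higher or lower in either: in M-BMDM_3h 0.38% of all genes were higher and 0.747% lower, and in GM-BMDM_3h 0.224% were higher and 0.523% lower. Above 1 in M-CSF cells and below 1 in GM-CSF cells were 57 core genes, above in both 17, below in both 3. Whether the responses of the macrophage types differ could not be tested. Each response is 1 pair of libraries, so the genes that move together in it are not repeats of each other. The M-BMDM library had the lowest summed scaled CPM of core genes (26930). It is also the reference for M-BMDM_24h and for GM-BMDM, so these comparisons share it.

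Over both types, the edgeR test called 1 member higher after 3 h of IL6 (0.177% of all genes rose) and none lower (0.788% of all genes fell). It was Rps13, an early-assembling small subunit protein, with 86.3 scaled CPM in M-BMDM, 124 in M-BMDM_3h, 98.4 in GM-BMDM and 107.5 in GM-BMDM_3h (0.33, SE 0.086, edgeR adjusted p = 0.026). With its copies added the values were 214, 242, 203 and 210.2, with a fitted change that did not pass, and no member was called with copies added, with total-count scaling or with the DESeq2 Wald test. At an unadjusted p under 0.05 in edgeR were 3 of 85 members: Rps13, Rpl14 and Rpl27a. The share of all genes at that threshold was not worked out, so the 3 are not read as a result. Their log2 fold changes were 0.33, 0.19 and 0.16 in own rows and 0.11, 0.10 and 0.06 with copies added.

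**Figure D4:**
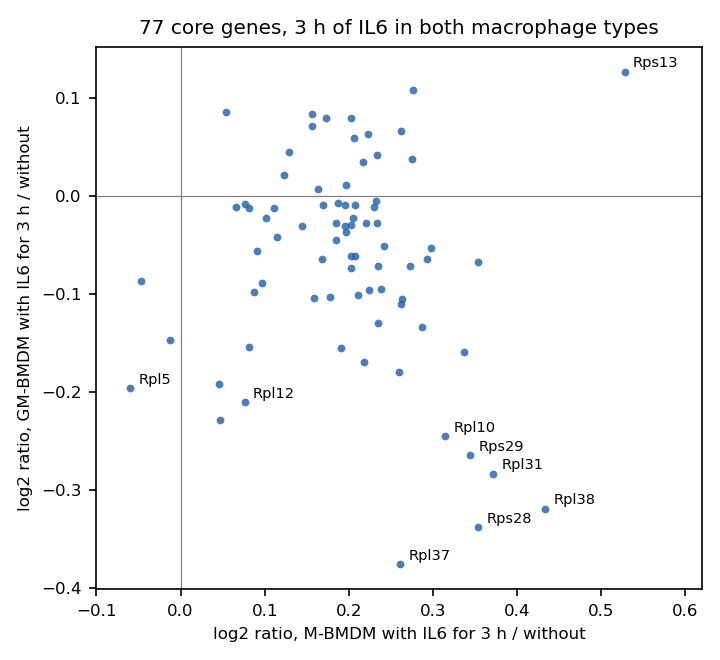
Log2 ratio of scaled counts after 3 h of IL6 against no IL6 in M-BMDM (x axis) and in GM-BMDM (y axis) for the 77 core genes, 1 library each. Most points lie to the right of 0 and below 0 (57 of 77), and Rps29, Rpl31, Rpl38 and Rps28 lie farthest to the lower right along with Rpl37 and Rpl10.

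Shorter core genes had lower 3 h ratios in GM-CSF cells, and the part of length in these ratios was not tested. The 35 core genes with coding sequences under 450 bases had a median log2 ratio of -0.09 and the 42 longer ones -0.03 in GM-BMDM_3h against GM-BMDM, with a Spearman correlation of 0.36 between coding length and ratio across the 77 genes of this 1 pair of libraries. Genes outside the rule with short coding sequences (567) had -0.02 and longer ones (8339) 0.02 there. In M-BMDM_3h both classes of core genes had 0.20, while the short genes outside the rule had 0.09 and the long ones 0.01. The correlation across core genes was -0.21 in M-BMDM_3h against M-BMDM, which is the opposite direction. In the remaining pairs of libraries it ran from -0.20 to 0.09. The 0.36 was therefore the largest value among the pairs compared.

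After 24 h of IL6 most core genes had ratios to M-BMDM above 1, by an amount that depends on the scaling. In M-BMDM_24h the median log2 ratio to M-BMDM was 0.08, with 54 of 77 above 1 (with total counts 71 of 77, with a median of 0.21 over members and 0.10 over all genes), and to M-BMDM_3h it was -0.11, with 17 of 77 above 1. With total-count scaling the median over members against M-BMDM_3h was 0.07, so that direction turns with the scaling. Against M-BMDM no member was higher (14.9% of all genes) and 5 were lower (12.4% of all genes). With total counts 2 were higher and 3 lower, and the share of all genes was not worked out. Against M-BMDM_3h no member was higher (14.8%) and 6 were lower (12.4%). Both comparisons share the 24 h library.

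The lower rows at 24 h were Rpl5 (-1.09 against M-BMDM), Rpl12 (-1.25), Rps12 (-0.70), Rpl7l1 (-0.71) and Rps4l (-0.89), and against M-BMDM_3h also Rps19bp1 (-0.69). With copies added Rpl5 had 0.01, Rpl12 -0.08 and Rps12 0.07 against M-BMDM, and 2 members were lower, or 3 against M-BMDM_3h. Rps4l, a relative of Rps4x, had 6.39 scaled CPM in M-BMDM and 3.45 at 24 h. The core genes with the highest ratios to M-BMDM were Rpsa (0.54), Rpl3 (0.51), which forms part of the peptidyl transferase region, Rps18 (0.42), Rps29 (0.40) and Rps2 (0.37). Rpl3 had 649 in M-BMDM, 730.0 in M-BMDM_3h and 922 in M-BMDM_24h.

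The paralogs and look-alike names differed from the core genes and among themselves. Rps27l, a relative of Rps27 that Trp53 is known to induce, had 35.3 scaled CPM in BM and 48.7 to 57.4 in the cultures, while Rps27 had 232 in BM and 134 to 186 in the cultures. Rpl36al had 109 in BM and 103 to 131 in the cultures, close in level to Rpl36a with 130.3 and 92.0 to 123. Rpl22l1 stayed between 37.7 and 45.1 in the 6 libraries. Rpl39l and Rpl3l, known from testis and from muscle, had at most 0.322 and 0.453 scaled CPM, and Rpl10l and Rpl32l had 0 counts in every library, which allows up to 3 counts in each. These 4 and Rpl6l, Rps3a2 and Rps3a3 were the 7 members not analysed. Fau and Rack1 had ratios within the range of the core genes in all 8 pairs. Rack1, a signalling scaffold on the small subunit, had 635 scaled CPM in M-BMDM, 700.3 in BM and 725 in GM-BMDM.

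Genes whose products assemble ribosomes had a median log2 ratio above that of the core genes in M-BMDM against BM. Their median lay below that of the core genes in both pairs of GM-CSF against M-CSF cells. It also lay below in both pairs with the 24 h library. This difference between the lists was not tested. The lists in this paragraph and the next were chosen with earlier results of these data known. Of 49 ribosome biogenesis genes analysed, 33 were higher (23.1% of all genes) and none lower (23.8% of all genes) in M-BMDM than in BM. Their median log2 ratio was 0.94, where the core genes had -0.30. In GM-BMDM against M-BMDM none was higher (13.8% of all genes) and 33 were lower (13.1% of all genes), with a list median of -0.94. In the edgeR test over both pairs 44 fell (27.4% of all genes) and none rose (28.9% of all genes). In M-BMDM_24h against M-BMDM none was higher (14.9% of all genes) and 38 were lower (12.4% of all genes). The list median there was -1.07, with the core genes at 0.08. Medians were -0.95 in GM-BMDM_3h against M-BMDM_3h (core genes -0.16) and -1.09 in M-BMDM_24h against M-BMDM_3h (core genes -0.11). In GM-BMDM against BM 7 were higher (22.3% of all genes) and 8 lower (24.5% of all genes), with a median of 0.07 (core genes -0.27). At 3 h of IL6 none was higher or lower, with medians of -0.02 in M-CSF cells (core genes 0.20) and -0.06 in GM-CSF cells (core genes -0.05). The snoRNA-binding protein Nop58 had 67.2 scaled CPM in BM, 124 in M-BMDM, 113 in M-BMDM_3h, 40.8 in M-BMDM_24h, 34.0 in GM-BMDM and 32.4 in GM-BMDM_3h. M-BMDM with and without 3 h of IL6 were also the highest libraries for Rpl7l1 and for the own rows of Rpl5 and Rpl12. With copies added BM was highest for Rpl5 (673, against 541 in M-BMDM and 559 in M-BMDM_3h). The same held for Rpl12 (470.3, against 415 and 457).

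**Figure D5:**
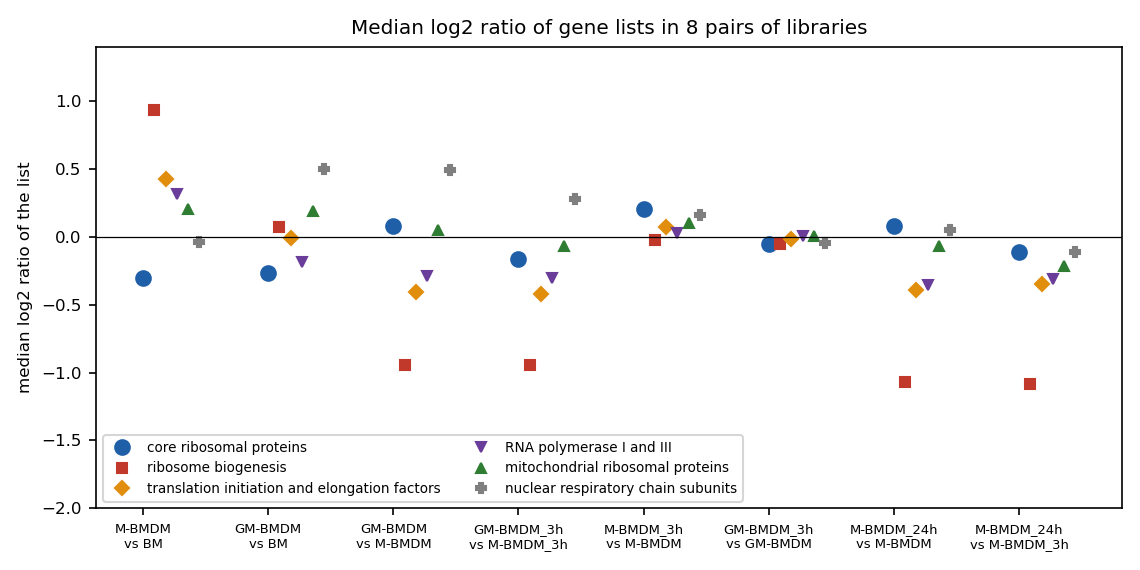
Median log2 ratio (y axis) of the core ribosomal protein genes and of 5 other gene lists in 8 pairs of libraries (x axis). Ribosome biogenesis genes lie at 0.94 for M-BMDM against BM, -0.94 for GM-BMDM against M-BMDM and -1.07 for M-BMDM_24h against M-BMDM, with core ribosomal proteins at -0.30, 0.08 and 0.08.

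Regulators of ribosome synthesis had ratios in both directions, as all genes did. Of 22 analysed, 6 were higher and 7 lower in M-BMDM than in BM (median -0.18), and 4 were higher and 5 lower in GM-BMDM against M-BMDM (median -0.02). Of 30 genes of RNA polymerases I and III, 8 were higher and 6 lower in the first of these pairs, and 10 were lower and none higher in the second. Of all genes 23.1% were higher and 23.8% lower in M-BMDM against BM, and 13.8% and 13.1% in GM-BMDM against M-BMDM. In M-BMDM_24h against M-BMDM, used below, 14.9% of all genes were higher and 12.4% lower. Myc, the transcription factor named above, had 47.8 scaled CPM in BM, 112.5 in M-BMDM, 113.5 in M-BMDM_3h, 15.9 in M-BMDM_24h, 43.4 in GM-BMDM and 44.4 in GM-BMDM_3h. Larp1, the binder of pyrimidine tracts, had 130.5, 277, 272, 118, 134 and 142 in that order. Both were highest in M-BMDM with and without 3 h of IL6. Mtor stayed between 40.3 and 55.7. Polr1a, the large subunit of the polymerase that makes ribosomal RNA, had 62.5, 108, 109.5, 57.5, 36.3 and 40.4. Of 35 translation factors 14 were higher and 3 lower in M-BMDM than in BM, 12 were lower and 1 higher in GM-BMDM than in M-BMDM, and 11 were lower and 2 higher at 24 h. Of 14 other mRNAs with a pyrimidine tract, 1 was higher (Tpt1, 1.10) and 1 lower in M-BMDM than in BM, and at 24 h 2 were higher (Nap1l1, 1.13, and Eif4b, 0.99). In GM-BMDM against M-BMDM 8 of these 14 fell in the edgeR test (27.4% of all genes) and none rose (28.9% of all genes). Eef1a1, an elongation factor, had -0.46. Of 26 proliferation genes 25 were lower in M-BMDM than in BM and all 26 were higher at 24 h than in M-BMDM (median 2.88), and the part of this in the 24 h values was not tested.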

How the data were processed

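RNA sequencing of 6 mouse libraries, 1 per group, was analysed. The deposited table holds expected counts (estimates, not always whole numbers) for each gene. The submitters' processing notes name HISAT2, StringTie, DESeq2 and GRCm38. Versions, settings, strand and how the authors handled reads with several matches were not given in the sources used here. Of 56278 rows, 742 had no gene name (0.24% to 0.522% of counts) and were left out. Counts were rounded. Genes with a CPM of 1 in any library were kept (14719). Scaling was TMM (edgeR 4.0.16, R 4.3.3). Medians of lists used a prior count of 2, and ratios of single genes none.

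Pair ratios had exact 95% Clopper-Pearson intervals. These hold counting error alone: reads copied by PCR and not tagged per molecule are not independent. The edgeR quasi-likelihood fit had terms for cell type, 3 h and 24 h of IL6 (biological coefficient of variation 6.45%) and an adjusted p threshold of 0.05. Only contrasts of 2 pairs were read as tests. Tested on simulated data of 14719 genes, the fit found 80% of 1.5-fold and 96% of 2-fold changes for GM-BMDM against M-BMDM. For 3 h of IL6 it found 81% and 98%, with 1 false call for the first test and 18 for the second. The simulated counts came from the fit's own means, with the 6.45% for every gene and the same 3 h response in both macrophage types. Changes were put only into genes with enough counts. These shares therefore hold only if that spread is right, which data without replicates cannot check.

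Copies were found with blastn 2.17.0+ against GENCODE M21 transcripts. Alternatives were DESeq2 size factors, total counts, a fold of 2, other filters, a prior count of 0.5, core genes only, the 4 libraries of the pairs, DESeq2 1.42.0 and limma-voom 3.58.1. Adding copies was chosen after the data were seen. Members and gene lists were chosen with earlier results of these data known.

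Named members were, for each pair, those counted as higher or lower, the 5 highest and 5 lowest ratios at a mean of at least 10 scaled CPM, all paralog names, the 5 lowest adjusted p per direction in each test, and a fixed set of subunits and regulators. Not every gene this rule allows is printed.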

Additional observations from a re-analysis of the deposited data

Results flagged for a closer look

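For 4 core genes IL6 for 3 h went with a higher level in M-CSF cells and a lower one in GM-CSF cells, each by at least 1.2-fold with a counting interval that excluded 1. The difference was not tested, since each response rests on 1 pair of libraries. How many of all genes met the same rule was not worked out. The 4 have short coding sequences, of 168 (Rps29), 210 (Rpl38), 207 (Rps28) and 387 (Rpl31) bases. Shorter core genes had lower 3 h ratios in GM-CSF cells, as given above, and the part of length was not tested. The correlation of coding length with the 3 h ratio was 0.36 in GM-CSF cells and -0.21 in M-CSF cells. Rps29 had a log2 ratio of 0.34 in M-BMDM and -0.26 in GM-BMDM. Rpl38, a large subunit protein known for selective translation of Hox mRNAs, had 0.43 and -0.32. Rps28 had 0.35 and -0.34. Rpl31 had 0.37 and -0.28. With near-identical copies added the ratios were 0.35 and -0.26 for Rps29, 0.43 and -0.32 for Rpl38, 0.37 and -0.32 for Rps28, and 0.29 and -0.28 for Rpl31.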

How the results depend on the processing

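Of 112 alternative values 71 kept within the limits set. The members' median turned sign with total counts in GM-BMDM against M-BMDM (-0.09) and M-BMDM_24h against M-BMDM_3h (0.07), but not when taken less the median of all genes. Total counts moved the members counted in a pair to 25 (M-BMDM against BM), 44 (GM-BMDM against BM), 5 (GM-BMDM_3h against M-BMDM_3h) and 3 (M-BMDM_24h against M-BMDM_3h). A fold of 2 left 1 (M-BMDM against BM), 2 (GM-BMDM against BM), 1 (GM-BMDM against M-BMDM), 2 (M-BMDM_24h against M-BMDM) and 2 (M-BMDM_24h against M-BMDM_3h). Adding copies gave 4, 2, 0, 2 and 3 for GM-BMDM against BM, GM-BMDM against M-BMDM, GM-BMDM_3h against M-BMDM_3h, and 24 h against M-BMDM and M-BMDM_3h. Core genes only gave 3 in both 24 h pairs. No share of all genes was worked out for the pair counts under these other settings. A filter at a CPM of 5 moved the members' median less that of all genes to -0.32 (M-BMDM against BM) and -0.22 (GM-BMDM against BM). Members passing the GM-BMDM against M-BMDM test were 41 with total counts and 11 with the DESeq2 Wald test, where 6 rose and 5 fell in place of 8 and 19. For 3 h of IL6 they were 0 with total counts, with copies and with DESeq2. Member shares, in the order BM, M-BMDM, M-BMDM_3h, M-BMDM_24h, GM-BMDM and GM-BMDM_3h, were 4.27%, 2.81%, 3.10%, 3.34%, 2.75% and 2.68% without haemoglobin and mitochondrial genes, 4.07%, 2.95%, 3.24%, 3.48%, 2.84% and 2.76% with named pseudogenes, and 4.24%, 3.07%, 3.37%, 3.62%, 2.96% and 2.88% with copies. The cause of these moves was not tested. No paired analysis was possible because each group has 1 library, so replicate numbers cannot act as a block. The pairs of the edgeR test are matched by IL6, not by replicate. Depth limits the low rows, such as Rps12l1 and Rps4l, and no group has a replicate.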

Other observations

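Mitochondrial ribosomal protein genes encode the separate ribosome of the mitochondrion. Of 78 analysed, 12 were higher and 5 lower in M-BMDM than in BM (median log2 ratio 0.20), where 23.1% and 23.8% of all genes were. Against M-BMDM 6 were higher and 3 lower in GM-BMDM (0.05; all genes 13.8% and 13.1%), and 7 were higher and 6 lower in M-BMDM_24h (-0.07; all genes 14.9% and 12.4%). In the edgeR test of GM-BMDM against M-BMDM 15 rose and 22 fell, where 28.9% and 27.4% of all genes did. Of the nuclear genes of the respiratory chain 62 of 77 rose and 1 fell in that test, with a median log2 ratio of 0.50 without IL6 and 0.28 after 3 h of it. Of 39 proteasome genes 5 rose and 15 fell in the same test.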
